A study of Bos taurus with 6 samples.

Results

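The let-7 family was read in liver small RNA of Wye Angus steers raised on grass or on grain. It was taken as 10 mature miRNAs, chosen by name from the 1030 that each deposited table lists. These were bta-let-7a-5p, bta-let-7b, bta-let-7c, bta-let-7d, bta-let-7e, bta-let-7f, bta-let-7g, bta-let-7i and bta-miR-98, which are the 9 members named for the let-7 seed, and bta-let-7a-3p, which comes from the opposite arm of let-7a precursors. The grass-fed group held 3 animals aged 21 months, fed mainly alfalfa, hay or pasture. The grain-fed group held 3 animals aged 14 months, fed mainly corn silage, shelled corn, soybean and minerals. Both groups were sampled at market weight from one closed herd, and each animal gave 1 library. Diet and age changed together and cannot be told apart.

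let-7 miRNAs are among the most conserved small RNAs of animals. They share the seed, the stretch near the 5′ end that pairs with target mRNAs, so that family members can repress overlapping sets of targets. Their levels rise as cells differentiate, and the RNA-binding protein LIN28 blocks their maturation in embryonic and many tumour cells. Known targets include HMGA2, MYC and RAS family mRNAs and parts of the insulin and growth factor pathway, which is why the family is studied in liver metabolism. The 3p arm of a let-7 precursor is usually the less abundant product and carries another seed.

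The 10 members are listed in 14 rows, since a mature miRNA has a row under each precursor that can make it, and come from 12 precursors. All 12 precursor names matched genes in RefSeq's annotation of ARS-UCD2.0, a later assembly than the ARS-UCD1.2 of the authors. In that annotation let-7a-1, let-7f-1 and let-7d are neighbours, and so are let-7a-3 and let-7b. let-7a-2 lies near the genes of miR-100 and miR-125b-1, let-7c near those of miR-99a and miR-125b-2, and let-7e near those of miR-99b and miR-125a. let-7f-2 and miR-98 overlap HUWE1, which encodes a ubiquitin ligase, and let-7g overlaps WDR82, which encodes a subunit of histone methyltransferase complexes. let-7i has no miRNA gene within 60 kb.

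The grass-fed libraries held 3824592 to 6133960 miRNA counts and the grain-fed libraries 464875 to 892929, with the largest count over precursors taken for each mature miRNA. TMM factors, which scale the libraries, were 0.692 to 0.996 in grass-fed against 1.11 to 1.21 in grain-fed libraries, and grass-fed replicate 2 had the lowest. Libraries of a group differed by more than sampling noise. bta-miR-122, which marks hepatocytes, took 26.2% to 31.7% of grass-fed and 14.9% to 21.6% of grain-fed counts. Of the skeletal muscle miRNAs, bta-miR-206 was not tested because of its low counts. bta-miR-1 was present, with means of 387 CPM in grass-fed and 228 CPM in grain-fed libraries after TMM scaling. bta-miR-133a had 25.3 and 22.1 CPM. Of the pancreas markers, bta-miR-216a was at 0 in all grass-fed libraries, and bta-miR-217 had 1 to 4 grass-fed counts and 0 to 31 grain-fed counts.

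All 10 members had a count above 2 in every library. Levels are given as CPM, the share of a library scaled to a common total, after TMM scaling. A read spans a whole mature miRNA, so the counts were compared between members without a length term. Abundance and order here are those of counts. How well each sequence was captured by adapter ligation and RT-PCR was not measured. bta-let-7f was the most abundant, at place 10 of the 456 tested miRNAs by mean CPM. It had 17141, 29167 and 20003 CPM in replicates 1, 2 and 3 of the grass-fed group and 17219, 15348 and 14485 CPM in those of the grain-fed group. Grass-fed replicate 2 stood above the other libraries, and the groups overlapped. bta-let-7g held place 12, bta-let-7a-5p place 16, bta-let-7i place 20 and bta-let-7b place 23. bta-let-7c held place 41, and bta-miR-98, bta-let-7e and bta-let-7d followed at places 79, 83 and 85. bta-let-7a-3p was the least abundant member, at place 132.

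**Figure D1:**
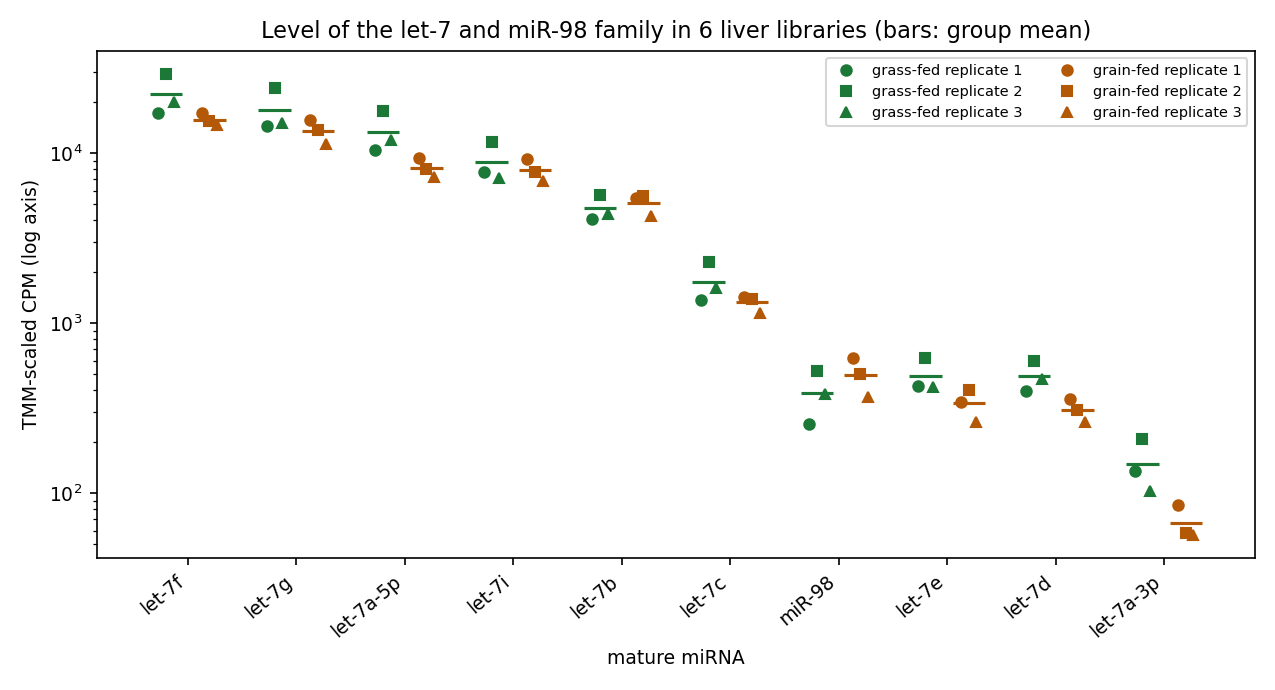
TMM-scaled CPM of the 10 members (log axis) in the 3 grass-fed and 3 grain-fed libraries, with a bar at each group mean. The members run from bta-let-7f, at place 10 of all tested miRNAs, to bta-let-7a-3p, at place 132, and grass-fed replicate 2, whose TMM factor was the lowest, is the highest grass-fed library for 10 of 10 members on this scale and for 6 of 10 as a share of library counts.

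The first 6 places, from bta-let-7f to bta-let-7c, were in the same order in 6 of 6 libraries. Each of these neighbours differed beyond the spread of their within-library log2 differences in the exact sign-flip permutation test (p = 0.0312, the smallest that 6 libraries can give, and adjusted p = 0.0402 over 9 neighbour pairs, two-sided). The pairs were set by the mean order in these same libraries, so the test shows only that the order of counts repeats across them. bta-let-7f exceeded bta-let-7g by 0.27 ± 0.10 and bta-let-7g exceeded bta-let-7a-5p by 0.57 ± 0.18 on the log2 scale (SD, n = 6). The order of bta-let-7g and bta-let-7a-5p turned when counts were summed over precursors, because bta-let-7a-5p has 3 precursor rows that hold nearly the same reads. bta-let-7a-5p exceeded bta-let-7i by 0.59 ± 0.16 in grass-fed but by 0.05 ± 0.03 in grain-fed libraries (log2, SD, n = 3 each), so the pair were nearly level in grain-fed liver. A wide step separated bta-let-7b from bta-let-7c, with 1.70 ± 0.28 (log2, SD, n = 6). Another of 1.82 ± 0.46 separated bta-let-7c from bta-miR-98. Over the 6 libraries, bta-miR-98 against bta-let-7e and bta-let-7e against bta-let-7d did not differ beyond the spread (adjusted p = 0.719 and 0.668, exact sign-flip permutation test). The first of these averages opposite orders, since bta-miR-98 was below bta-let-7e by a mean log2 difference of -0.38 in grass-fed libraries and above it by 0.55 in grain-fed libraries, in 3 of 3 libraries of each diet. bta-let-7d stood above bta-let-7a-3p by 1.99 ± 0.36 (log2, SD, n = 6, adjusted p = 0.0402, exact sign-flip permutation test).

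The first comparison asked whether the level of each member differed between the feeding regimens. In the edgeR quasi-likelihood test 3 of 10 members passed FDR 0.1, and all 3 were higher in grass-fed liver. They were both arms of let-7a and bta-let-7d. Over all 456 tested miRNAs 19.1% passed in either direction and 9.43% were called higher in grass-fed liver. The log2 fold change was above 0 for 8 of 10 members and for 263 of all tested miRNAs. The median over the 10 members was 0.45, beside 0.13 over all tested miRNAs. After TMM, the CPM of grass-fed and grain-fed libraries did not overlap for 4 of 10 members, beside 32.9% of all tested miRNAs. Shares of library counts gave another set. On that scale bta-let-7a-3p stayed separate and higher in grass-fed liver, and bta-let-7b, bta-let-7i and bta-miR-98 were separate and lower. The matching percent over all tested miRNAs was not taken.

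bta-let-7a-3p had 134, 207 and 103 CPM in the grass-fed and 84.7, 58.0 and 56.8 CPM in the grain-fed libraries, from 393 to 878 and from 32 to 87 counts. Each grass-fed library was above each grain-fed library, and grass-fed replicate 3 was the nearest to the grain-fed range. Its log2 fold change was 1.13 with a standard error of 0.32 (FDR = 0.0309, edgeR). The call was lost without grain-fed replicate 2, with 0.93 (FDR = 0.175, edgeR), or grain-fed replicate 3, with 0.98 (FDR = 0.104, edgeR).

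bta-let-7a-5p, the main product of 3 let-7a precursors, had 10364, 17538 and 11938 CPM in grass-fed against 9268, 8053 and 7227 CPM in grain-fed libraries. The groups did not overlap after TMM, although grass-fed replicate 1 lay close to grain-fed replicate 1. As shares of library counts they overlapped. CPM without TMM was 10656 in grain-fed replicate 1, above 9696 in grass-fed replicate 1. The log2 fold change of bta-let-7a-5p was 0.70 with a standard error of 0.22 (FDR = 0.0532, edgeR). The call was lost without grass-fed replicate 2, where the log2 fold change was 0.44 (FDR = 0.165, edgeR). It was also lost without grass-fed replicate 3, grain-fed replicate 2 or grain-fed replicate 3, where the values were 0.67, 0.59 and 0.57 (FDR = 0.104, 0.230 and 0.140, edgeR).

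bta-let-7d, encoded beside let-7a-1 and let-7f-1, had 399, 596 and 467 CPM in grass-fed against 356, 307 and 261 CPM in grain-fed libraries. The ranges did not overlap after TMM. They overlapped as shares of library counts, where grain-fed replicate 1 exceeded grass-fed replicate 1 (409 against 374 CPM without TMM). The log2 fold change of bta-let-7d was 0.66 with a standard error of 0.23 (FDR = 0.0862, edgeR). This call was lost without any one of the 6 libraries, with FDR from 0.105 to 0.281 and a fold change of 0.48 to 0.72, and with most other settings.

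Another 5 members had log2 fold changes above 0 and did not pass FDR 0.1. bta-let-7e had 424, 617 and 421 CPM in grass-fed against 344, 401 and 263 CPM in grain-fed libraries, without overlap after TMM. Its groups overlapped as shares of library counts. The fold change was 0.53 on the log2 scale (FDR = 0.195 and standard error 0.25, edgeR). For bta-let-7f, the most abundant member, the log2 fold change was 0.49 (standard error 0.21, FDR = 0.177, edgeR), and grain-fed replicate 1 exceeded grass-fed replicate 1. It passed without grass-fed replicate 1 (FDR = 0.0861, edgeR). bta-let-7c had 0.40 and bta-let-7g 0.40, both with FDR = 0.295 in edgeR, and their ranges overlapped. bta-let-7i had 7704, 11566 and 7122 CPM in grass-fed against 9140, 7752 and 6851 CPM in grain-fed libraries. Its groups overlapped, and its fold change of 0.15 on the log2 scale (FDR = 0.753 and standard error 0.22, edgeR) became -0.10 without grass-fed replicate 2.

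The remaining members, bta-let-7b and bta-miR-98, had log2 fold changes below 0 and did not pass. bta-let-7b had 4098, 5682 and 4355 CPM in grass-fed against 5425, 5566 and 4226 CPM in grain-fed libraries. After TMM, grass-fed replicate 2 was the highest of the 6, and the groups overlapped. Its log2 fold change was -0.11 (standard error 0.21, FDR = 0.816, edgeR). bta-miR-98, encoded beside let-7f-2, had 254, 520 and 380 CPM in grass-fed against 619, 503 and 365 CPM in grain-fed libraries. Its groups overlapped as well, and the fold change was -0.37 on the log2 scale (FDR = 0.453 and standard error 0.29, edgeR).

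These fold changes moved with the way libraries were scaled. The median of all tested miRNAs was 0.13 after TMM, 0.06 with RLE size factors, 0.31 after upper-quartile scaling and -0.29 with total counts alone. With total counts alone 2 of 10 members passed FDR 0.1 in edgeR, beside 16.2% of all tested miRNAs in either direction and 14.3% lower in grass-fed liver. Both members were lower in grass-fed liver, bta-miR-98 with -0.82 (FDR = 0.0647, edgeR) and bta-let-7b with -0.54 (FDR = 0.0809, edgeR), and let-7a-5p, let-7a-3p and let-7d were no longer called. With upper-quartile scaling 7 of 10 members passed, all higher in grass-fed liver, beside 27.2% of all tested miRNAs in either direction and 18.0% higher. All calls split into 43 higher and 44 lower after TMM, 9 and 65 with total counts alone, and 82 and 42 after upper-quartile scaling. bta-let-7b, bta-let-7c, bta-let-7g and bta-let-7i each changed sign in at least one of these settings.

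A scaling shifts all miRNAs of a library by about the same amount, so its effect is removed by construction when the median of all tested miRNAs is subtracted, and agreement between scalings on a relative scale carries no information. On that relative log2 scale under TMM, bta-let-7a-3p stood at 0.99 and ran from 0.70 to 1.19 when the libraries were left out singly. bta-let-7a-5p stood at 0.56, with 0.35 to 0.72, and bta-let-7d at 0.52, with 0.39 to 0.66. bta-let-7e ran from 0.23 to 0.51, bta-let-7f from 0.15 to 0.52, bta-let-7c from 0.067 to 0.43 and bta-let-7g from 0.024 to 0.40. bta-let-7i lay on both sides of the median, from -0.19 to 0.11. bta-let-7b ran from -0.38 to -0.14 and bta-miR-98 from -0.75 to -0.28.

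**Figure D2:**
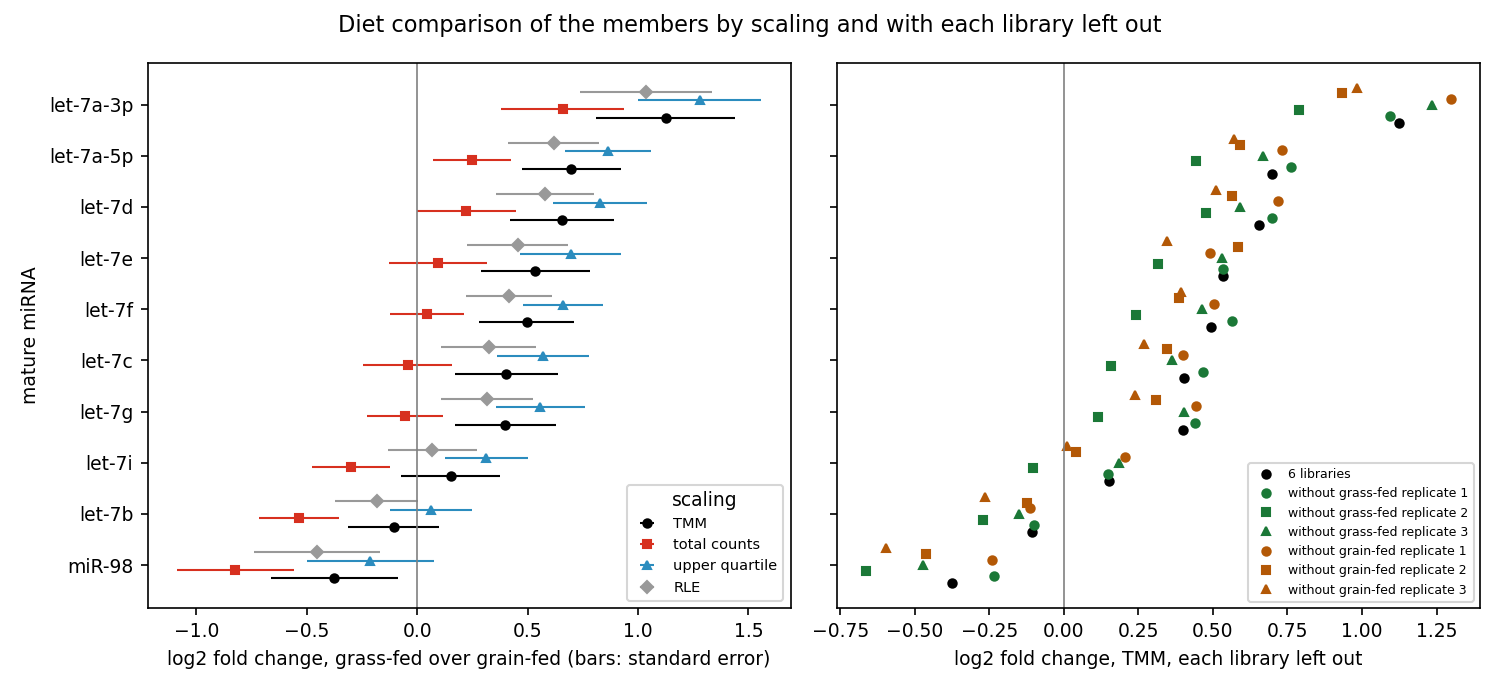
Left, log2 fold change of each member, grass-fed over grain-fed, with its standard error under TMM, total-count, upper-quartile and RLE scaling; right, the TMM value with all 6 libraries and with each library left out. A change of scaling moves all members along the axis together, and leaving out 1 library moves bta-let-7a-3p between 0.79 and 1.30 and bta-let-7a-5p between 0.44 and 0.76.

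The makeup of the family needs no scaling between libraries, since it compares members within a library. The 9 seed members together made up 5.91% ± 0.584 of all miRNA counts in grass-fed against 6.10% ± 0.637 in grain-fed libraries (SD, n = 3 each). The values were 5.25%, 6.36% and 6.11% in the 3 grass-fed libraries, beside 6.82%, 5.90% and 5.60% in the 3 grain-fed libraries, and the groups overlapped (exact permutation p = 0.8, two-sided). Without bta-miR-122 in the total, the shares were 8.37% ± 1.13 and 7.49% ± 0.894 (SD, n = 3 each, exact permutation p = 0.4).

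**Figure D3:**
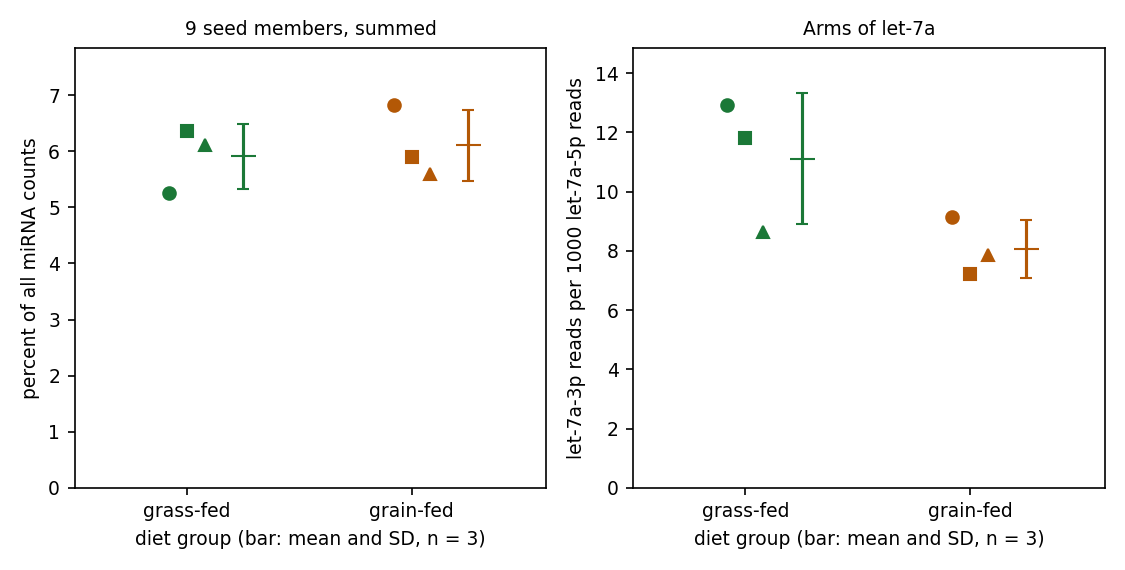
Left, the 9 seed members as a percent of all miRNA counts; right, bta-let-7a-3p reads per 1000 bta-let-7a-5p reads. Points are single libraries and bars the mean and SD of 3 libraries; the family share overlaps between the diets, with means of 5.91% and 6.10%, and so does the arm ratio, with means of 11.1 and 8.07.

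Within the family, shares of 5 of 9 members did not overlap between the diets. Among all tested miRNAs, the ratio to the summed family counts did not overlap for 29.4%. bta-let-7a-5p and bta-let-7d took larger shares in grass-fed liver, and bta-let-7b, bta-let-7i and bta-miR-98 took smaller ones. For each of the 5, the exact permutation p was 0.1, the smallest that 3 libraries against 3 can give, and the adjusted p over 9 members was 0.18 (two-sided), so no share can pass 0.05 in this design.

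bta-let-7a-5p made up 18.5%, 19.1% and 19.5% of the family in grass-fed against 15.6%, 15.2% and 15.7% in grain-fed libraries. All values within a group lay close together, and the difference of means was 3.51 percentage points. bta-let-7b made up 7.30%, 6.18% and 7.10% in grass-fed against 9.15%, 10.5% and 9.15% in grain-fed libraries, a difference of -2.74 points. bta-let-7i made up 13.7%, 12.6% and 11.6% in grass-fed against 15.4%, 14.6% and 14.8% in grain-fed libraries, or -2.32 points. Shares of the family sum to a fixed total, so a larger share of one member implies smaller shares of others, and a smaller share does not say that the level of that member was lower.

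Among the scarcer members, bta-miR-98 had the widest gap in proportion. Its share was 0.453%, 0.565% and 0.619% in grass-fed against 1.04%, 0.948% and 0.792% in grain-fed libraries. The difference was -0.383 points, and the log2 ratio of the means -0.77. bta-let-7d made up 0.707% ± 0.0564 of the family in grass-fed against 0.581% ± 0.0173 in grain-fed libraries (SD, n = 3 each). The means of bta-let-7c were 2.50% in both groups (SD 0.0926 and 0.104, n = 3 each, exact permutation p = 1), and those of bta-let-7g were 25.4% ± 0.792 and 25.5% ± 0.841 (exact permutation p = 0.7). bta-let-7f took 31.6% ± 1.03 and 29.8% ± 1.37 (exact permutation p = 0.2), and bta-let-7e took 0.705% ± 0.0456 and 0.635% ± 0.105 (exact permutation p = 0.3). The 95% Wilson interval of a share was widest in grain-fed replicate 3, the shallowest library. Its full width there was 1.13 points for bta-let-7f, 1.05 for bta-let-7g and 0.883 for bta-let-7a-5p. It was 0.701 for bta-let-7b, 0.864 for bta-let-7i and 0.216 for bta-miR-98. These intervals cover counting error alone. A full width spans several standard errors, so it cannot be set directly against an SD between libraries.

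**Figure D4:**
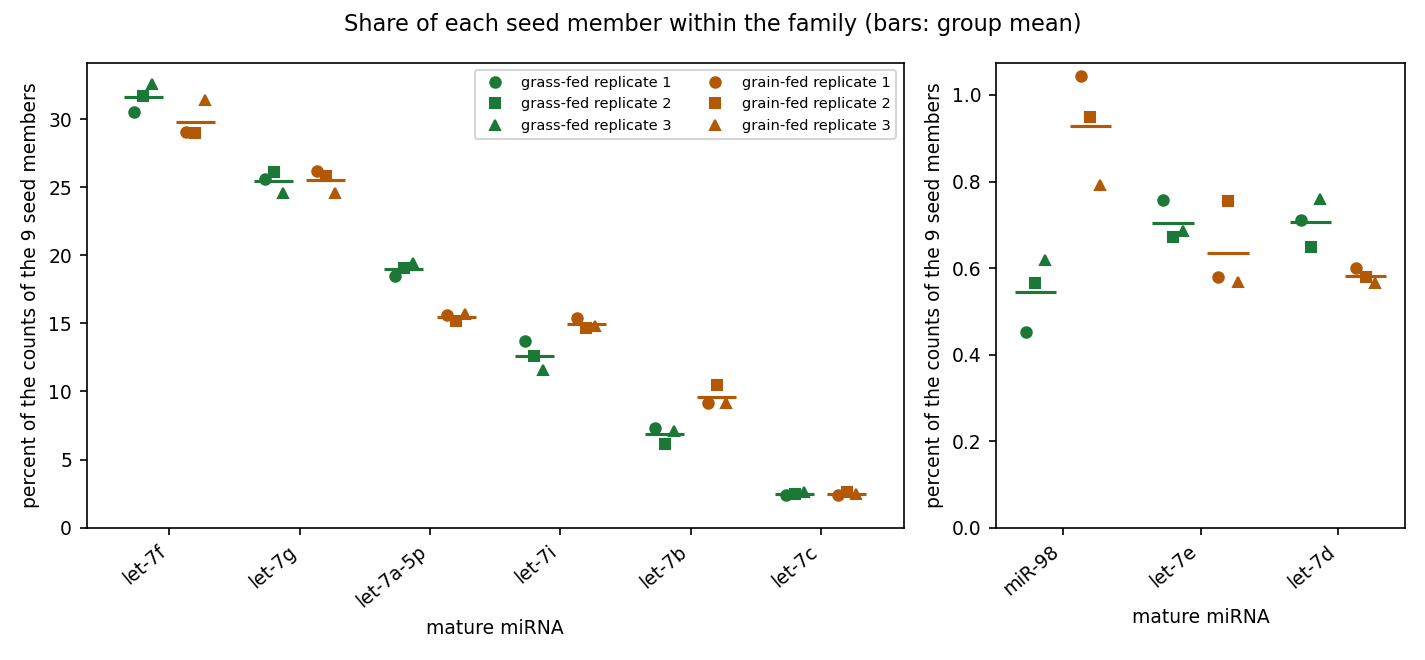
Percent of the counts of the 9 seed members taken by each member, in 3 grass-fed and 3 grain-fed libraries, with a bar at each group mean; the right panel has its own axis for members under 2%. bta-let-7a-5p and bta-let-7d are higher and bta-let-7i, bta-let-7b and bta-miR-98 are lower in all grass-fed than in all grain-fed libraries.

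The shares were set beside all other miRNAs by scaling each library to the summed counts of the 9 seed members, a setting chosen after the data were seen. It restates the shares and is no separate evidence of them. In that edgeR fit bta-miR-98 passed FDR 0.1, with a log2 fold change relative to the family of -0.78 (standard error 0.25, FDR = 0.0966), the 1 member of 10 to do so, beside 12.5% of all tested miRNAs in either direction and 11.4% lower. bta-let-7b had -0.48 (standard error 0.19, FDR = 0.186, edgeR), bta-let-7i -0.24 (FDR = 0.499, edgeR) and bta-let-7a-5p 0.29 (FDR = 0.333, edgeR), and none of these passed.

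Ratios were then taken between members that have neighbouring genes. They were picked after the shares were seen and describe the same values. They do not compare loci, since bta-let-7a-5p comes from 3 precursors and bta-let-7f from 2. There were 39.5, 32.4 and 36.5 bta-let-7b reads per 100 bta-let-7a-5p reads in grass-fed against 58.5, 69.1 and 58.5 in grain-fed libraries, without overlap. let-7b is the neighbour of let-7a-3. For bta-let-7d, the neighbour of let-7a-1, the ratio was 3.72 ± 0.280 per 100 bta-let-7a-5p reads in grass-fed against 3.75 ± 0.126 in grain-fed libraries (SD, n = 3 each), and the groups overlapped. bta-miR-98, the neighbour of let-7f-2, had 1.48, 1.78 and 1.90 reads per 100 bta-let-7f reads in grass-fed against 3.60, 3.27 and 2.52 in grain-fed libraries, again without overlap.

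The arms of let-7a were compared within each library. bta-let-7a-3p is listed under let-7a-1 and let-7a-3 and bta-let-7a-5p also under let-7a-2, so the ratio is not that of a single precursor. There were 12.9, 11.8 and 8.64 bta-let-7a-3p reads per 1000 bta-let-7a-5p reads in grass-fed against 9.14, 7.21 and 7.85 in grain-fed libraries. Grass-fed replicate 3 lay below grain-fed replicate 1, so the groups overlapped (means 11.1 ± 2.22 and 8.07 ± 0.985, SD, n = 3 each, exact permutation p = 0.2). The larger fold change of the 3p arm than of the 5p arm was thus not resolved as a difference between arms.

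The precursor rows hold mostly shared reads. For bta-let-7a-5p the 3 rows of a library differed by 9 to 254 counts, or 0.221% to 0.365% of the smallest row. bta-let-7a-3p had the same count under let-7a-1 and let-7a-3 in every library. For bta-let-7f, the row of let-7f-2 exceeded that of let-7f-1 by 3.03% to 4.26%. The locus that made the reads can therefore not be told from these tables. let-7 members also differ from each other by few bases, and the number of mismatches allowed at counting is not given in the sources used here, so some reads of one member may be counted under another. bta-miR-3596, whose gene overlaps that of let-7b in RefSeq, had 0 counts in all 6 libraries, which allows up to 0.787 CPM in grass-fed against 5.32 CPM in grain-fed libraries.

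Of 6 miRNAs encoded near let-7 genes and chosen by name, 2 were higher and 1 was lower in grass-fed liver at FDR 0.1 in edgeR. The genes of miR-2443, miR-3596, miR-135a-1 and miR-12038 also lie within 60 kb of let-7 genes and were not among the 6. bta-miR-2443 had 3, 5 and 6 counts in grass-fed and 0 in all grain-fed libraries, which were shallower. Over all tested miRNAs 19.1% passed in either direction and 9.43% were called higher. The median log2 fold change of the 6 was 0.19. bta-miR-125b, encoded near let-7c and let-7a-2, had 2913, 2970 and 2794 CPM in grass-fed against 1087, 1086 and 1691 CPM in grain-fed libraries. The groups lay far apart, with a log2 fold change of 1.17 (FDR = 0.00328, edgeR). bta-miR-125a, encoded near let-7e, had a log2 fold change of 1.16 (FDR = 0.00939, edgeR). bta-miR-99a-3p, the minor arm of the miRNA beside let-7c, had 23.5 ± 1.27 CPM in grass-fed against 41.1 ± 5.64 CPM in grain-fed libraries (SD, n = 3 each) and a log2 fold change of -0.83 (FDR = 0.0532, edgeR). bta-miR-99a-5p had 0.27, bta-miR-100 0.12 and bta-miR-99b 0.09, and none of these passed (FDR = 0.442, 0.753 and 0.832, edgeR).

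Members differed in how alike they were over the 6 libraries, in which diet, age and depth change together. The levels compared were TMM-scaled. A TMM factor moves all miRNAs of a library together, so shared scaling is part of each correlation given here. Grass-fed replicate 2 had the lowest factor, 0.692, and correlations without TMM were not taken. Pearson correlations of log2 CPM were 0.875 to 0.987 for the 15 pairs among let-7a-5p, let-7c, let-7d, let-7e, let-7f and let-7g. bta-let-7b correlated at 0.249 to 0.588 with these 6, and bta-miR-98 at 0.0805 to 0.394. bta-let-7b and bta-miR-98 had r = 0.893 with each other. bta-let-7i lay between, with 0.677 to 0.921 against the same 6, 0.739 with bta-let-7b and 0.566 with bta-miR-98. Outside the family, 123 miRNAs with a mean of at least 100 CPM were searched for the pattern of the summed seed members. The nearest were bta-miR-199b (r = 0.975), bta-miR-22-5p (r = 0.970), bta-miR-7 (r = 0.958), bta-miR-148a (r = 0.947) and bta-miR-99a-5p (r = 0.930), and none of these passed FDR 0.1 in edgeR. For bta-let-7a-3p the nearest were bta-miR-660 (r = 0.992), bta-miR-1307 (r = 0.983) and bta-miR-1 (r = 0.964), of which bta-miR-660 (FDR = 0.0241) and bta-miR-1307 (FDR = 0.0324) were called higher in grass-fed liver in edgeR. For bta-miR-98 they were bta-miR-451 (r = 0.916), bta-miR-505 (r = 0.815) and bta-miR-22-3p (r = 0.790). These are descriptions of 6 libraries that were searched for likeness.

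Markers of liver and blood cell types were read beside the members, since let-7 is found in most cell types. In bulk liver, fewer cells of a type and less RNA per cell cannot be told apart. The summed level of 5 hepatocyte miRNAs was 516658 to 820756 CPM in grass-fed against 328230 to 389886 CPM in grain-fed libraries. Called higher in edgeR were 2 of 5, bta-miR-122 and bta-miR-192. The sum rests mostly on bta-miR-122 and on bta-miR-148a, which was not called (FDR = 0.212, edgeR). bta-miR-885 was not called, and bta-miR-194 went the other way, with a log2 fold change of -0.43 (FDR = 0.300, edgeR). For 5 stellate and mesenchymal miRNAs the ranges were 79753 to 115814 and 73762 to 86462 CPM, with 3 of 5 called higher. Most of that sum is bta-miR-143, which was not called (FDR = 0.272, edgeR). For 5 biliary miRNAs they were 599 to 880 and 442 to 704 CPM, with 1 higher and 1 lower. None of 5 leukocyte miRNAs (743 to 993 and 943 to 1132 CPM), of 3 erythroid miRNAs (419 to 643 and 465 to 665 CPM) or of 2 endothelial miRNAs passed. Of the 3 pancreas miRNAs 2 were called lower, bta-miR-216a and bta-miR-217. Both had 0 counts in grain-fed replicate 3, and their ranges overlapped. The summed level of the 3 was 32.0 to 35.8 CPM in grass-fed against 14.2 to 126 CPM in grain-fed libraries. Most of that sum is bta-miR-375, which was not called (FDR = 0.280, edgeR). For the 2 tested skeletal muscle miRNAs the ranges were 312 to 522 and 195 to 352 CPM, and neither passed. These calls stand beside 19.1% of all tested miRNAs called in either direction and 9.43% called higher. The part of these cell types in the let-7 values was not tested.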

How the data were processed

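Small RNA libraries of 3 grass-fed and 3 grain-fed livers were analysed, with groups and replicate numbers from the sample labels. The authors removed adapters, low-quality reads and reads outside the kept lengths, mapped the rest to ARS-UCD1.2 and ran miRDeep2 to count miRNAs already known. The sources used here give neither its version nor the mismatches allowed. Raw counts were deposited, in 1 row per precursor of a mature miRNA. The deposited CPM divides them by the library total over pairs and was not used. The largest count over precursors was taken for each mature miRNA.

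Testing covered the 456 miRNAs that had over 2 counts in 2 or more libraries, with TMM scaling and the quasi-likelihood test of edgeR 4.0.16 (R 4.3.3), Benjamini-Hochberg adjustment and FDR 0.1. Each standard error is the log2 fold change over the root of F. Single values were compared by exact permutation tests, two-sided. DESeq2 1.42.0, limma 3.58.1, other scalings, filters and counts, and each library left out were alternatives. p-values measure the spread between these animals.

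Named miRNAs are all members, 6 chosen by name among those encoded near let-7 genes, and cell type markers written from general knowledge. The 5 nearest to the family sum and the 3 nearest to bta-let-7a-3p and to bta-miR-98 are named as well. Members, lists and tests were chosen with earlier results of these data known. The edgeR fit was tested on simulated data with known changes of 2 on the log2 scale, up or down. It found 83% of them, and 7.57% of its calls were false. Changes as small as those of the members were not simulated. The mRNA and metabolite data were not analysed here, and mature sequences were not used here.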

Additional observations from a re-analysis of the deposited data

Results flagged for a closer look

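The order of bta-miR-98 and bta-let-7e was opposite in the 2 diets in every library. The log2 difference, bta-miR-98 minus bta-let-7e, was -0.74, -0.25 and -0.15 in the 3 grass-fed libraries, beside 0.85, 0.33 and 0.48 in the 3 grain-fed libraries. The means were -0.38 ± 0.32 and 0.55 ± 0.27 (SD, n = 3 each), which differ by -0.93 (exact permutation p = 0.1, the smallest that 3 against 3 allows). The pair was singled out from 9 neighbour pairs for this pattern.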

How the results depend on the processing

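For the count of members past FDR 0.1, 3 as reported, the value was 7 with upper-quartile scaling, and it was 1 at FDR 0.05, 1 with total counts without bta-miR-122 and 1 with the family sum as library size. It ran from 0 to 3 with each library left out, falling to 1 without grass-fed replicate 2 or grass-fed replicate 3 and to 0 without grain-fed replicate 2 or grain-fed replicate 3. All calls were 87, or 57 with the family sum, and 49 to 86 with each library left out, the lowest without grain-fed replicate 2. With total counts alone the log2 fold change was 0.25 for bta-let-7a-5p, 0.66 for bta-let-7a-3p and 0.22 for bta-let-7d, all no longer called, while bta-let-7b (-0.54) and bta-miR-98 (-0.82) were called and bta-let-7c (-0.043), bta-let-7g (-0.056) and bta-let-7i (-0.30) changed sign. With upper-quartile scaling bta-let-7b changed sign (0.063) and bta-let-7c (0.57), bta-let-7e (0.70), bta-let-7f (0.66) and bta-let-7g (0.56) were called.

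With the family sum bta-let-7a-5p (0.29), bta-let-7a-3p (0.73) and bta-let-7d (0.28) lost the call, bta-miR-98 (-0.78) gained it, and bta-let-7g (-0.0057) and bta-let-7i (-0.24) changed sign. Library totals without bta-miR-122 gave 0.46 for bta-let-7a-5p and 0.43 for bta-let-7d, not called, and -0.093 for bta-let-7i. Both of these settings, and TMM computed without the members, were chosen after seeing the data. bta-let-7d also lost its call with separate precursor pairs (0.58), RLE size factors (0.58), no filter (0.63), at least 10 counts in 3 libraries (0.52), DESeq2 (0.58) and the replicate block (0.65). Replicate numbers share no stated animal or day, and deviations of libraries with the same number correlated at -0.201 to -0.0111, so the samples share a number alone; the replicate block left 2 of 10 members and 82 miRNAs called and changed no other member's call.

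With each library left out, the log2 fold change ran from 0.44 to 0.76 for bta-let-7a-5p, from 0.79 to 1.30 for bta-let-7a-3p, from 0.48 to 0.72 for bta-let-7d, from 0.24 to 0.56 for bta-let-7f and from -0.10 to 0.20 for bta-let-7i. The causes of these changes were not tested.

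Summing over precursors counts shared reads more than once. It moved the difference in the family share (grass-fed minus grain-fed) from -0.197 to 0.465 percentage points, and leaving bta-miR-122 out of the total moved it to 0.883. Summing also changed the difference in within-family share to 4.77 points for bta-let-7a-5p, -1.93 for bta-let-7b, 0.0563 for bta-let-7d, 0.130 for bta-let-7f and -0.257 for bta-miR-98. It placed bta-let-7a-5p above bta-let-7g, with a log2 difference of -1.01. Depth limits bta-let-7a-3p most, with 32 to 87 grain-fed counts.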
